A study of Homo sapiens with 8 samples.

Results

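The 10 genes described here, DUSP6, DUSP4, DUSP5, SPRY1, SPRY2, SPRY4, SPRED1, SPRED2, ETV4 and ETV5, encode feedback inhibitors and nuclear targets of the ERK kinase pathway. Their open chromatin was followed in the established human ovarian carcinoma line A2780 and in lines derived from it that resist cisplatin, paclitaxel or both. A peak was counted for a gene when it overlapped the RefSeq span of the gene extended by 1 kb on each side, or when it lay within 100 kb and the gene was the nearest protein-coding gene. This gave 289 peaks of 159451 in the deposited matrix, 117 in the extended spans and 172 distal, and all 289 passed the filter on low values. The genes were chosen by a measured value of these data, the lower signal at the DUSP6 gene end in the paclitaxel-resistant than in the control libraries. The comparison of those lines is therefore only described. It is given as levels and as counts past the call rule used elsewhere, and these counts are not taken as a test.

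ATAC-seq, which maps accessible DNA by where the transposase Tn5 can place adapters, was applied to 4 groups with 2 libraries each. Every group carries the genotype label WT. The groups are control A2780 cells with no treatment listed, cisplatin-resistant cells (CpR) with cisplatin listed, paclitaxel-resistant cells (TxR) with paclitaxel listed, and dual-resistant cells (TxCpR) with both drugs listed. The labels do not say whether drug was on the cells at collection, whether a line is a clone, or whether the paired libraries are separate cultures. P-values thus reflect the spread between these libraries alone, and that spread may be technical.

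ERK is the last kinase of the RAS, RAF and MEK cascade, through which growth factor receptors drive proliferation. Active ERK induces its own inhibitors, and the transcripts of these genes are widely used as a readout of the pathway. Neither transcripts nor ERK activity were measured here. DUSP6 and DUSP4 are phosphatases that remove the activating phosphates from ERK, in the cytoplasm and the nucleus respectively, and DUSP5 is a nuclear ERK phosphatase. Sprouty proteins (SPRY1, SPRY2, SPRY4) dampen receptor signalling upstream of RAS and RAF. SPRED proteins (SPRED1, SPRED2) bring the RAS inhibitor neurofibromin to the membrane, and ETV4 and ETV5 are ETS transcription factors induced by and acting downstream of ERK.

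RefSeq promoter windows (GRCh38.p14) were given for 6 of the 10 genes. The 250 bases before the start are shown for the 4 genes whose strongest start peak overlapped such a window, because these are the promoters whose accessibility is reported below. Sequences run 5′ to 3′ on the strand of the gene, and capitals mark matches to the motifs searched.
DUSP6 chr12:89352502-89352751, minus strand: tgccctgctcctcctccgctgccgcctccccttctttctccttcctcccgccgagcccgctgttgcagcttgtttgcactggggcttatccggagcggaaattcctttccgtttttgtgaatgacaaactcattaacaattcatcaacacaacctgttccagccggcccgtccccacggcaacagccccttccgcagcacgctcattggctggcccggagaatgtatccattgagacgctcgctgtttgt
SPRY1 chr4:123396545-123396794, plus strand: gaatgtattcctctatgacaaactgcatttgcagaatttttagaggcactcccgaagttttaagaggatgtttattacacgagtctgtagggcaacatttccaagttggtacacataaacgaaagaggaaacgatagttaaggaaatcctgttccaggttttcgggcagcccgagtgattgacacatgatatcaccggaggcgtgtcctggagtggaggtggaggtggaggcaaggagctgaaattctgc
SPRY2 chr13:80341127-80341376, minus strand: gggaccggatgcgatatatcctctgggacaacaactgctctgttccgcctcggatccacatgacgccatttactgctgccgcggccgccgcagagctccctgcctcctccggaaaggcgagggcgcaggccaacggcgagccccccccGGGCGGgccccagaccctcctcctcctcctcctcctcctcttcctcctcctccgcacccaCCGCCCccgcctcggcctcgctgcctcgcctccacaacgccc
SPRED2 chr2:65432600-65432849, minus strand: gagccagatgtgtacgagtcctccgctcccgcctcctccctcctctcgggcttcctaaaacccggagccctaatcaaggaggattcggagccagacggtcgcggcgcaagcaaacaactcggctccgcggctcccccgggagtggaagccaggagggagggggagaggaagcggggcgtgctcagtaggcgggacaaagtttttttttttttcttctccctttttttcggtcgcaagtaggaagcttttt

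The motifs searched on both strands were ETS CCGGAAGT, AP-1 TGANTCA, the cyclic AMP response element (CRE) TGACGTCA, Sp/KLF GGGCGG and, by name, the CArG box of serum response factor. In these 4 sequences only Sp/KLF was matched, at 2 positions in SPRY2. Among 34943 promoter sequences of the same length, 42.5% held the Sp/KLF letters, 3.39% ETS, 6.59% AP-1, 1.63% CRE and 1.17% the CArG box. The DUSP6, SPRY1 and SPRED2 stretches held none of the motifs, which says only that these letters are not in these windows. SPRY1, SPRY2 and SPRED2 have further promoter windows that are not printed. The other SPRY1 window, chr4:123398136-123398385, held Sp/KLF at 2 positions, and those of SPRY2 and SPRED2 held no match.

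Recovered reads in peaks ranged from 7693492 to 9304798 per library, so that 1 read was worth 0.107 to 0.130 CPM, the deposited unit of reads scaled to the same total in every library, and a count of 0 allows up to 0.322 to 0.390 CPM (3 reads, counting error only). Pearson's r of log2 values across peaks was 0.926 to 0.933 within groups and 0.549 to 0.826 between groups. Of the epithelial and ovarian marker genes, 7 of 8 had a measured start peak, MUC16 being the exception, and their summed level was 23.0 to 40.3 CPM in every library. Of the fibroblast markers 5 of 6 were measured (32.2 to 68.8 CPM, FAP not measured), of the haematopoietic 4 of 5 (4.61 to 9.23 CPM, PTPRC not measured), and of the endothelial only KDR of 4 (1.34 to 11.97 CPM; PECAM1, CDH5 and VWF not measured). The part of any of these in the results below was not tested.

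More peaks of the 10 genes were called lower than higher in TxCpR, against both control and CpR, and against CpR much of this excess lay in SPRED1. Their shares of higher and lower calls in CpR against control were nearer to those of all peaks. Differences are limma contrasts of log2(CPM + 0.5), fitted over all 158698 tested peaks, and calls were made below 0.05 after Benjamini-Hochberg adjustment. In TxCpR against control, 98 of 289 peaks (33.9%) were lower and 7 (2.42%) higher, while 5.39% of all peaks were lower and 8.11% higher. In TxCpR against CpR, 136 (47.1%) were lower and 42 (14.5%) higher, beside 19.9% and 21.9% of all peaks. SPRED1 gave 67 of these lower calls. More peaks were higher than lower in SPRY4 (21 and 4), ETV5 (8 and 0) and DUSP4 (2 and 1), and DUSP6 had 5 of each. The other genes had more lower than higher calls. In the deposited matrix 62.6% of the 289 peaks carry a CpR library as their origin, beside 34.25% of all peaks. The part of this in the calls was not tested. In CpR against control, 70 (24.2%) were higher and 52 (18.0%) lower, beside 18.3% and 14.9%. The first and the last of these comparisons share the control libraries with each other and with the contrast that chose the genes. The difference of TxCpR from CpR uses neither the control nor the TxR libraries. Its SE and calls do draw on them, because all groups were fitted together with a shared estimate of the spread.

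SPRED1 holds 71 of the 289 peaks, and peaks of a locus are not independent of each other. Over the 218 peaks of the other 9 genes, 52 were lower (23.9%) and 7 higher (3.21%) in TxCpR than in control, beside 5.39% and 8.11% of all peaks. Against CpR, 69 were lower (31.7%) and 41 higher (18.8%) in TxCpR, beside 19.9% and 21.9% of all peaks. In CpR against control the 218 peaks divided into 46 higher (21.1%) and 52 lower (23.9%). Median-ratio scaling moved the median difference of all peaks between TxCpR and CpR from 0.16 to -0.00, and the calls over all peaks to 24991 higher and 37272 lower from 34800 and 31534. For TxCpR against control it gave 10716 higher and 10743 lower in place of 12864 and 8561. The members divided into 32 higher and 147 lower against CpR, and 6 higher and 102 lower against control, under the same scaling.

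**Figure D1:**
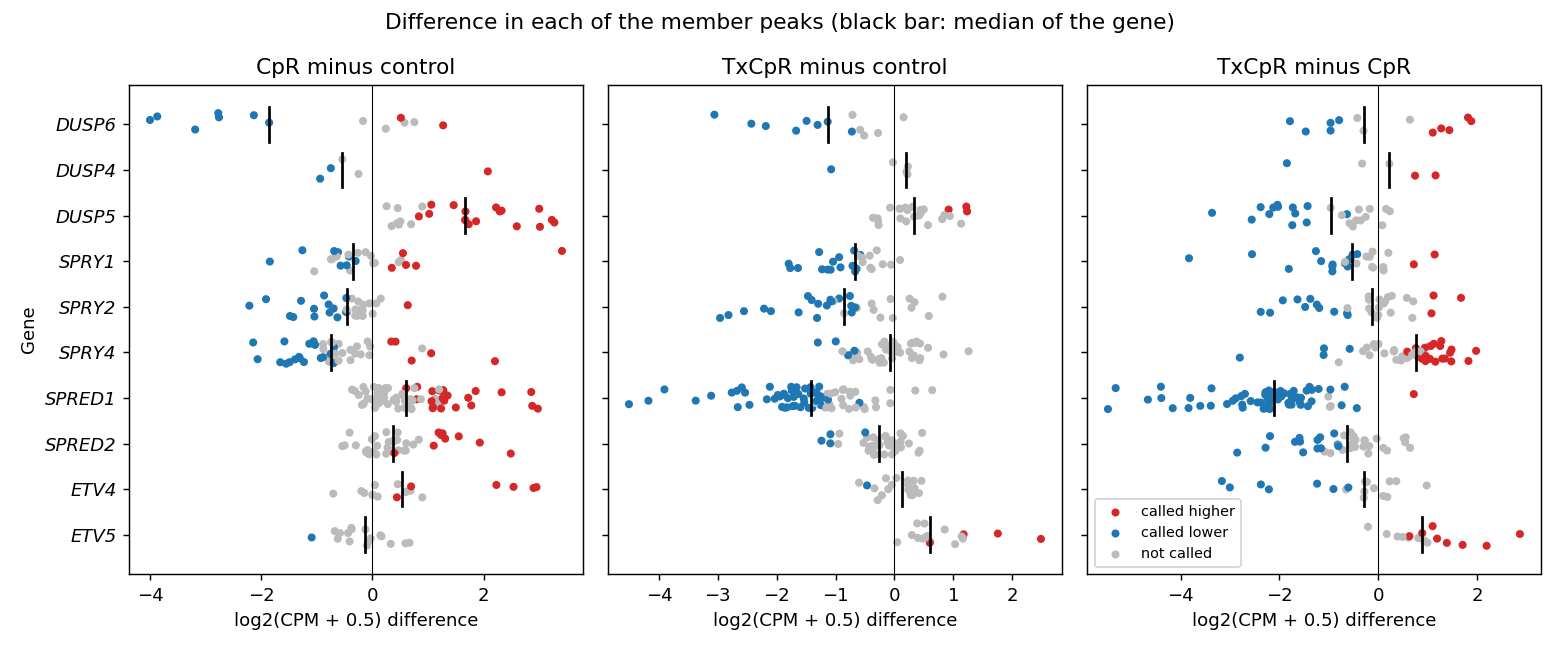
Difference in log2(CPM + 0.5) (horizontal axis) in each of the 289 peaks (points), by gene, for CpR minus control, TxCpR minus control and TxCpR minus CpR; red points were called higher, blue lower, grey not called, and the black bar is the median of the gene. SPRED1 has 46 and 67 of its 71 points called lower in the TxCpR panels, DUSP5 points lie right of 0 in the CpR panel, and ETV5 is the gene with 4 peaks called higher and none lower in TxCpR against control.

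At the gene starts, none of the 10 genes was called higher in TxCpR. Against control 7 of 10 start peaks were lower (DUSP6, DUSP4, SPRY1, SPRY2, SPRED1, SPRED2 and ETV4), with a median difference of -0.54. Over all 15791 protein-coding gene starts 15.2% were lower, 4.57% higher, and the median was -0.14. Against CpR 6 of 10 were lower (DUSP6, DUSP5, SPRY1, SPRED1, SPRED2 and ETV4), median -0.43, beside 16.9% lower, 18.9% higher and a median of 0.05 over all starts. In CpR against control 3 were higher (SPRY4, SPRED2 and ETV4) and 3 lower (DUSP4, SPRY1 and SPRY2), beside 10.7% and 28.5% of all starts.

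**Figure D2:**
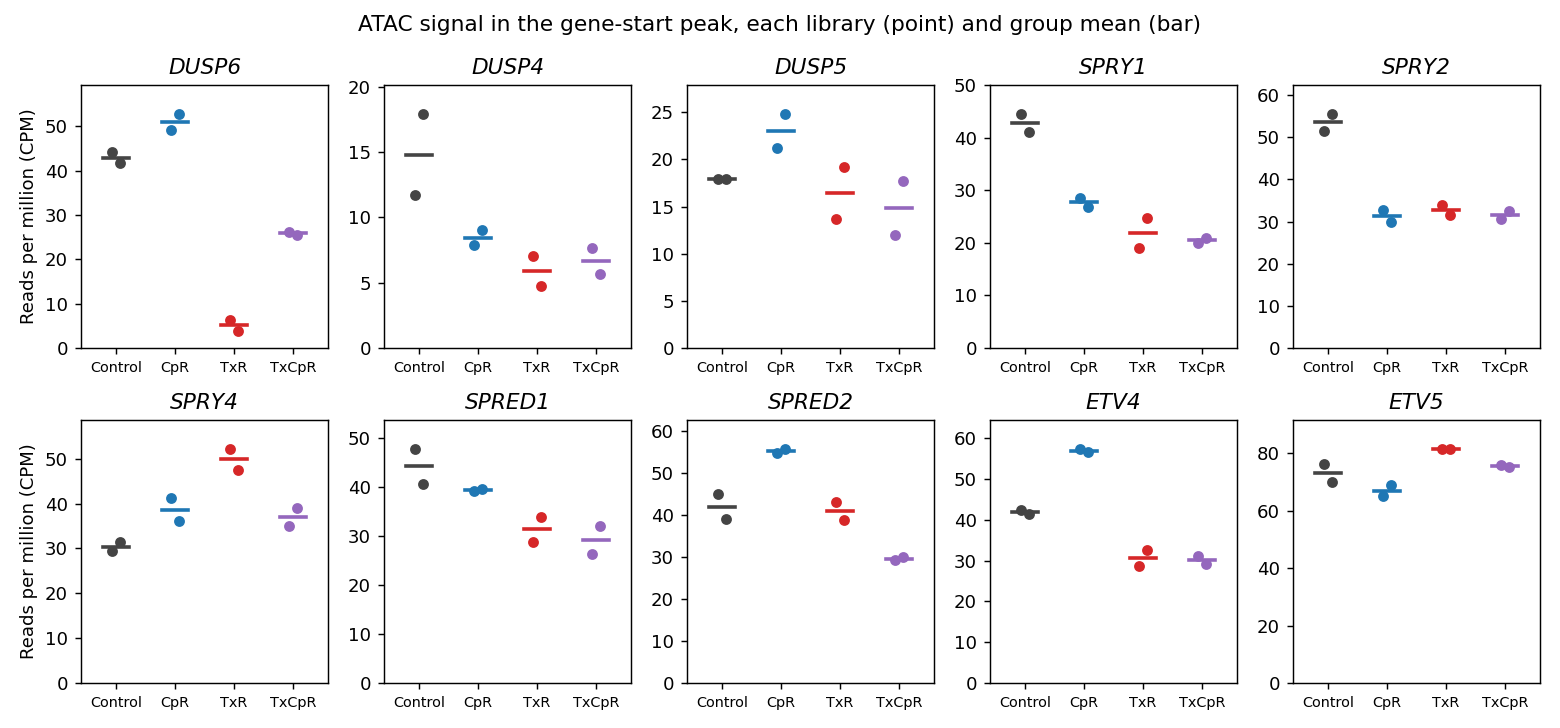
ATAC signal in CPM (vertical axis, from 0) in the start peak of each gene; points are the 2 libraries of control, CpR, TxR and TxCpR, and the bar is the group mean. The DUSP6 points fall from 42.9 CPM on average in control to 25.8 in TxCpR and 5.13 in TxR, while the ETV5 points stay between 65.3 and 81.6 CPM in all 8 libraries.

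DUSP6, the main cytoplasmic ERK phosphatase, showed a promoter and a distal downstream block that differed in opposite ways between CpR and TxCpR. The downstream part of this was no longer called once the median of the surrounding 5 Mb bin was subtracted, as given below. The gene occupies chr12:89347235-89352501 on the minus strand, and 13 peaks were assigned to it. Its start peak, chr12:89351875-89352875, which covers the promoter sequence above, held 44.2 and 41.7 CPM in control, 49.1 and 52.7 in CpR, 6.44 and 3.82 in TxR and 26.1 and 25.6 in TxCpR. The groups did not overlap, in the order CpR, control, TxCpR, TxR. TxCpR was lower than control by a log2 difference of -0.72 (SE 0.15, limma adjusted p = 0.000116) and lower than CpR by -0.96 (SE 0.15, adjusted p = 5.93e-08). The control libraries are also those of the contrast that chose the genes through DUSP6. Differences of DUSP6 peaks from control, here and below, are therefore not independent of that choice. The difference of CpR from control, 0.24, was not called (SE 0.15, adjusted p = 0.215), although quantile scaling (0.37), cyclic loess scaling (0.44) and edgeR (0.32) each called it. 

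By the nearest-gene rule, upstream distal peaks inside the read-through gene POC1B-DUSP6 were not assigned to DUSP6. The 7 distal DUSP6 peaks thus all lie downstream of the gene, 7.8 to 37.7 kb from the start, and all 7 were lower in CpR than in control. Their summed signal was 130.2 and 129.7 CPM in control, 12.5 and 13.9 in CpR, 4.01 and 5.84 in TxR and 31.7 and 27.6 in TxCpR. Control stood far above every other library, and TxCpR stood between CpR and control. The 6 peaks in the extended span behaved otherwise: their sum was 91.1 and 100.8 CPM in control, 122.2 and 126.6 in CpR, 14.5 and 11.9 in TxR and 63.8 and 61.0 in TxCpR. None of these 6 was lower in CpR than in control, and 2 were higher.

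Nearest of the downstream peaks, 7.8 kb from the start, chr12:89344165-89345165 held 46.3 and 40.3 CPM in control, as much as the promoter itself. It held 6.30 and 5.61 CPM in CpR, 0.971 and 1.12 in TxR and 6.31 and 3.55 in TxCpR. Its difference from control was -2.76 in CpR (SE 0.25, adjusted p = 1.78e-16) and -3.06 in TxCpR (SE 0.25, adjusted p = 7.54e-19), and CpR and TxCpR overlapped. The adjacent span peak, chr12:89345526-89346526, did not share this pattern, with 14.8 and 19.1 CPM in control, 16.1 and 13.8 in CpR, 1.21 and 0.899 in TxR and 8.90 and 6.13 in TxCpR.

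Farther out, chr12:89328227-89329227, at 23.8 kb, held 24.8 and 26.1 CPM in control, 0.900 and 1.75 in CpR, 0.607 and 0.450 in TxR and 5.56 and 3.33 in TxCpR. At 25.6 kb, chr12:89326437-89327437 had the largest loss of any member peak in CpR, from 14.6 and 18.7 CPM in control to 0.225 and 1.05, a log2 difference of -4.00 (SE 0.39, adjusted p = 3.99e-15). TxCpR held 4.20 and 2.47 CPM there. At 35.3 kb, chr12:89316670-89317670 held 25.2 and 21.6 CPM in control, 1.91 and 2.34 in CpR, 0.486 and 1.35 in TxR and 8.04 and 10.4 in TxCpR. In each of these 3 peaks TxCpR stood above CpR and below control.

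Against CpR, therefore, TxCpR was higher in 5 of the 7 downstream peaks and in none of the span peaks, and lower in 5 of the 6 span peaks and in none of the downstream peaks. DUSP6 lies in a fixed 5 Mb bin of chromosome 12 that is not centred on the gene. The bin held 277 tested peaks, those of DUSP6 among them. Its median difference from control was 1.09 in TxCpR and 1.03 in TxR, opposite in sign to the DUSP6 medians of -1.13 and -3.21. In CpR the regional median was -0.29, of the same sign as the DUSP6 median of -1.86, and for TxCpR against CpR it was 1.44. After this median was subtracted, all 13 DUSP6 peaks were lower in TxCpR than in control, the start peak by -1.81. The same subtraction left none of the 5 downstream calls against CpR higher, with 0.44 at 35.3 kb and 0.38 at 25.6 kb, and made the start peak of CpR higher than control (0.53). DUSP6 span peaks also lie within the read-through gene POC1B-DUSP6, and when that gene was ignored in the assignment 4 more upstream peaks joined, of which 1 was lower and 1 higher in CpR than in control and none was called in TxCpR against control.

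**Figure D3:**
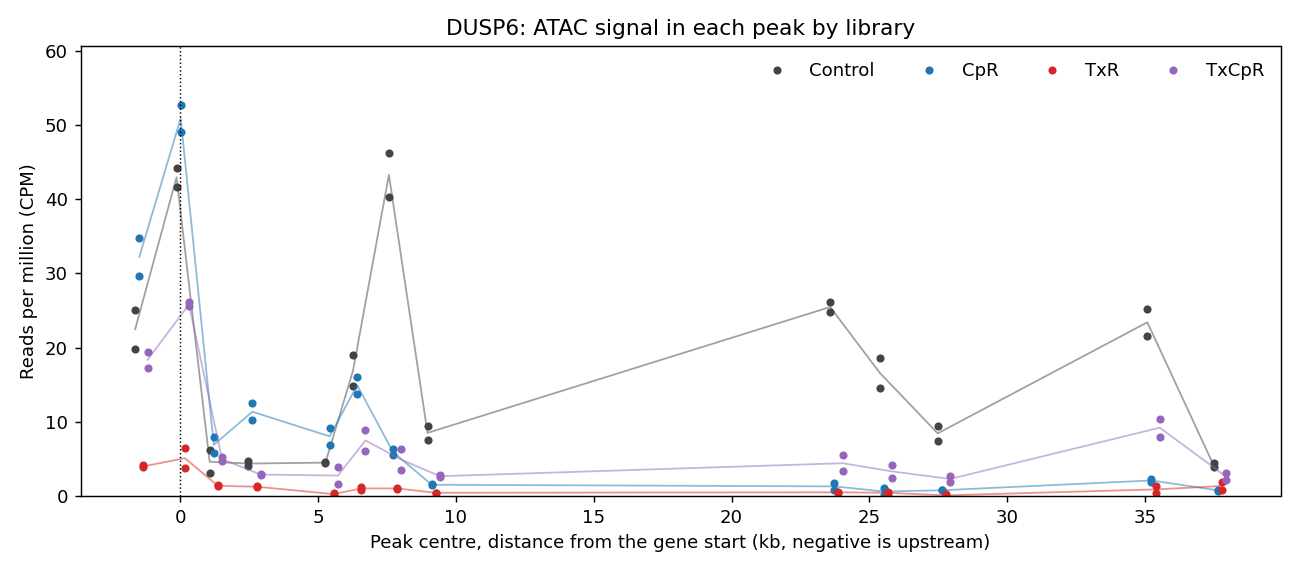
ATAC signal in CPM (vertical axis) in the 13 DUSP6 peaks against the distance of the peak centre from the gene start in kb; points are single libraries, lines join group means, and the 4 groups are drawn slightly apart for legibility. Control (dark grey) is high at the start and again at 7.8, 23.8 and 35.3 kb, CpR (blue) only around the gene, and TxR (red) does not exceed 6.44 CPM.

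In TxR all 13 DUSP6 peaks lay below both control libraries, and all 13 passed the same call rule as lower (9.17% of all peaks did, and 7.26% as higher), from which nothing is read because this contrast chose the genes. The lowest values were at chr12:89324281-89325281, with 0.243 and 0 CPM in TxR against 7.41 and 9.53 in control. Over the 10 genes 127 peaks passed as lower and 6 as higher in TxR, and these counts too are description and support nothing. By gene, the lower ones were 48 of 71 in SPRED1, 22 of 31 in SPRY2, 17 of 26 in SPRY1, 15 of 45 in SPRY4, 5 of 18 in ETV4, 4 of 38 in SPRED2, 2 of 5 in DUSP4, 1 of 25 in DUSP5 and 0 of 17 in ETV5.

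DUSP4, a nuclear ERK phosphatase induced by ERK, lies at chr8:29333064-29350684 and had 5 peaks. Its start peak, chr8:29349990-29350990, held 11.7 and 17.9 CPM in control, 7.88 and 9.003 in CpR, 7.04 and 4.72 in TxR and 7.67 and 5.70 in TxCpR. Both control libraries stood above every other library. The difference from control was -0.75 in CpR (SE 0.23, limma adjusted p = 0.00704) and -1.07 in TxCpR (SE 0.23, adjusted p = 0.000216). Without control library 2, the higher one, neither call held (-0.45 in CpR and -0.78 in TxCpR), and the CpR call was also lost without CpR library 1 (-0.66), after subtraction of the regional median (-0.45), under cyclic loess scaling (-0.49) and by DESeq2 (-0.70). TxCpR against CpR, -0.33 and not called, was called lower after regional subtraction (-0.81) and under cyclic loess (-0.61). The strongest DUSP4 peak was distal, chr8:29314566-29315566, 17.5 kb outside the span, with 17.0 and 23.8 CPM in control, 12.2 and 8.65 in CpR, 7.89 and 5.84 in TxR and 23.5 and 23.6 in TxCpR. There CpR was lower than control by -0.94 (SE 0.19, adjusted p = 2.21e-05) and TxCpR higher than CpR by 1.16 (SE 0.19, adjusted p = 1.59e-07).

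DUSP5, the ERK phosphatase confined to the nucleus, gained accessibility in CpR across its locus. The gene lies at chr10:110497907-110511533, and 17 of its 25 peaks were higher in CpR than in control and none lower. The summed signal of the 25 peaks was 52.8 and 62.7 CPM in control, 176.0 and 175.5 in CpR, 51.5 and 57.8 in TxR and 77.2 and 77.7 in TxCpR. CpR stood apart from all other libraries. Against CpR, 13 peaks were lower in TxCpR and none higher, and 3 were higher in TxCpR than in control (1 higher and 1 lower after subtraction of the regional median of 0.39).

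The DUSP5 start peak, chr10:110497162-110498162, took little part in this: it held 17.9 and 17.9 CPM in control, 21.2 and 24.8 in CpR, 13.7 and 19.2 in TxR and 11.99 and 17.7 in TxCpR. CpR against control was not called (0.35, SE 0.17, limma adjusted p = 0.103; called under quantile, cyclic loess and median-ratio scaling and by edgeR, 0.43 to 0.56), and TxCpR was lower than CpR (-0.63, SE 0.17, adjusted p = 0.00121) but not without TxCpR library 1 (-0.36). TxCpR against control was -0.29 and not called, and -0.68 and called after regional subtraction. The gains were at weak peaks elsewhere. At the far end of the gene, chr10:110512106-110513106 went from 1.43 and 0.515 CPM in control to 12.4 and 12.9 in CpR (3.23, SE 0.39, adjusted p = 4.13e-11), with 0.486 and 1.12 in TxR and 2.23 and 1.83 in TxCpR.

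A distal DUSP5 peak 82.7 kb outside the span, chr10:110414240-110415240, held 0.520 and 0.515 CPM in control and 9.45 and 9.24 in CpR, 8 reads in all against 163, a ratio of 18.1 (exact 95% interval 8.96 to 42.6, counting error only). TxR held 1.34 and 0.899 CPM there and TxCpR 1.86 and 1.93. Another, 86.5 kb outside, chr10:110410452-110411452, held 1.04 and 1.67 CPM in control, 17.1 and 11.7 in CpR, 1.58 and 0.899 in TxR and 0.989 and 0.860 in TxCpR. Within the gene, chr10:110500642-110501642 was higher than control in both CpR (11.6 and 8.89 CPM) and TxCpR (6.80 and 7.85), from 2.86 and 2.83, by 1.67 and 1.22 (SE 0.26 each, limma adjusted p = 6.96e-08 and 0.000159).

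SPRY1, a Sprouty inhibitor of receptor tyrosine kinase signalling, lost accessibility at its promoter in CpR and TxCpR. The gene lies at chr4:123396795-123403760 on the plus strand. Its start peak, chr4:123396442-123397442, held 44.5 and 41.1 CPM in control, 28.5 and 26.9 in CpR, 19.1 and 24.7 in TxR and 20.0 and 21.0 in TxCpR. Both control libraries stood highest, and TxR and TxCpR overlapped. CpR was lower than control by -0.62 (SE 0.14, limma adjusted p = 0.000121) and TxCpR by -1.04 (SE 0.14, adjusted p = 6.76e-10). TxCpR was also lower than CpR, by -0.42 (SE 0.14, adjusted p = 0.00754), a call lost without CpR library 1 (-0.38), without TxCpR library 1 (-0.39) and after regional subtraction (-0.28).

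Across SPRY1, 16 of 26 peaks were lower in TxCpR than in control and none higher, and 12 of these 16 were among the 19 downstream distal peaks. The strongest, chr4:123412654-123413654, 16.4 kb downstream of the start, held 49.0 and 53.2 CPM in control, 38.2 and 44.8 in CpR, 31.2 and 28.9 in TxR and 22.4 and 20.6 in TxCpR, a stepwise order with no overlap between groups. In CpR against control the 26 peaks were mixed, with 5 higher and 8 lower. The largest of the gains was 53.3 kb downstream, at chr4:123449631-123450631, which held 1.43 and 1.67 CPM in control, 19.5 and 23.3 in CpR, 5.95 and 5.96 in TxR and 0.989 and 1.08 in TxCpR. Its difference of CpR from control, 3.41 (SE 0.30, adjusted p = 2.57e-17), was the largest gain of any named member peak in that comparison, and TxCpR was lower than CpR by -3.83 (SE 0.30, adjusted p = 2.47e-20).

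SPRY2, the most widely expressed Sprouty, showed the same direction at its promoter, with CpR and TxCpR alike. The gene lies at chr13:80335976-80341126 on the minus strand. Its start peak, chr13:80340780-80341780, held 51.6 and 55.5 CPM in control, 32.6 and 29.8 in CpR, 33.9 and 31.6 in TxR and 30.5 and 32.5 in TxCpR. The 3 resistant groups overlapped, and every one of their libraries lay below both control libraries. The difference from control was -0.77 in CpR and -0.76 in TxCpR (SE 0.12 each, limma adjusted p = 6.15e-08 and 2.11e-07). TxCpR differed from CpR by 0.01 (SE 0.12, adjusted p = 0.941), which was -0.02 under cyclic loess and -0.18 under median-ratio scaling.

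Upstream of SPRY2, 14 of 17 distal peaks were lower in TxCpR than in control. The strongest member peak of the gene was there, 18.6 kb upstream, chr13:80359274-80360274, with 78.9 and 77.6 CPM in control, 54.3 and 58.7 in CpR, 32.3 and 36.8 in TxR and 38.3 and 34.9 in TxCpR. It was lower than control by -0.47 in CpR and -1.09 in TxCpR (SE 0.10 each, limma adjusted p = 0.000166 and 2.19e-15), the CpR call being lost after regional subtraction (-0.14). At 27.0 kb upstream, chr13:80367630-80368630 held 23.8 and 22.9 CPM in control, 3.83 and 5.61 in CpR, 4.13 and 1.69 in TxR and 4.45 and 4.84 in TxCpR, a loss of -2.21 from control in both CpR and TxCpR (SE 0.26). In the 9 downstream distal peaks only 1 was lower in TxCpR, and 5 were lower in CpR. Of the 14 SPRY2 peaks lower in CpR than in control, 6 calls were counted after subtraction of the regional median, which was -0.33.

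SPRY4, a Sprouty inhibitor whose transcript is a common marker of ERK output, behaved differently from SPRY1 and SPRY2. It spans chr5:142310430-142325021 on the minus strand, and its start peak here is the strongest within 1 kb of the promoter window, chr5:142324612-142325612. This peak held 29.4 and 31.4 CPM in control, 41.2 and 36.1 in CpR, 52.2 and 47.5 in TxR and 35.0 and 39.1 in TxCpR. Both control libraries stood lowest and TxR highest. CpR was higher than control by 0.34 (SE 0.12, limma adjusted p = 0.0157), a call lost without control library 1 (0.29) or CpR library 1 (0.25). TxCpR against control was not called (0.28, SE 0.12, adjusted p = 0.0979; called under quantile scaling, 0.43, and cyclic loess, 0.42). TxCpR against CpR, -0.06, was called lower only after regional subtraction (-0.44).

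Elsewhere in the SPRY4 locus more peaks were called lower than higher in CpR, against the direction of the start peak. Of all 45 peaks, the start peak among them, 20 were lower than control, 5 higher and 20 not called. After subtraction of the regional median of -0.22, 13 were lower and 6 higher. The summed signal of its 33 distal peaks was 252.0 and 264.4 CPM in control, 141.0 and 149.9 in CpR, 157.3 and 155.4 in TxR and 187.1 and 179.3 in TxCpR. In TxCpR against CpR 21 peaks were higher and 4 lower, and against control 4 were lower and none higher. After subtraction of the regional median, 8 were higher and 8 lower against CpR. The largest named gain against CpR was 79.9 kb upstream, chr5:142403649-142404649, with 0.450 and 0.585 CPM in CpR and 4.08 and 3.01 in TxCpR (1.98, SE 0.49, limma adjusted p = 0.000527), beside 1.95 and 0.644 in control and 0 and 1.12 in TxR.

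SPRED1, a scaffold that brings neurofibromin to RAS, held the single peaks with the most negative difference in TxCpR, against control and against CpR, among the 289. Its span is chr15:38252836-38357249 on the plus strand. Of its 71 peaks, 46 were lower in TxCpR than in control and none higher, and 67 were lower in TxCpR than in CpR and 1 higher, whereas 24 were higher in CpR than in control and none lower. The summed signal of the 71 peaks was 318.8 and 307.0 CPM in control, 517.7 and 538.6 in CpR, 93.5 and 101.4 in TxR and 101.1 and 103.4 in TxCpR. CpR stood above control, and TxR and TxCpR stood together below it. After subtraction of the regional median, -0.35 for TxCpR against control, 31 were lower against control and 67 against CpR.

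The contrast was sharpest in the 20 distal peaks upstream of SPRED1, 2.4 to 93.8 kb from the start. All 20 were lower in TxCpR than in CpR, 12 were lower in TxCpR than in control, and 15 were higher in CpR than in control. Their summed group means were 103.5 CPM in control, 259.8 in CpR, 12.5 in TxR and 12.6 in TxCpR. Peaks below 1 CPM in TxR and TxCpR could pass the filter on low values only through control or CpR. The upstream peaks named below all carry a CpR library as their origin. The counts over the 20 peaks are thus partly set by how peaks were found and filtered. The 34 peaks in the extended span changed less in CpR, with 1 higher and none lower, while 24 of them were lower in TxCpR than in control. The start peak, chr15:38251211-38252211, taken as the strongest within 1 kb of the promoter window, held 47.8 and 40.7 CPM in control, 39.2 and 39.6 in CpR, 28.9 and 33.9 in TxR and 26.3 and 32.0 in TxCpR. No library fell below 26.3 CPM there, and its difference of TxCpR from control was -0.59 (SE 0.12, limma adjusted p = 9.78e-05; -0.24 and not called after regional subtraction). TxCpR was lower than CpR by -0.43 (SE 0.12, adjusted p = 0.00229), not called without TxCpR library 1 (-0.29).

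Only 6.0 kb upstream of the SPRED1 start, chr15:38246372-38247372 held 17.7 and 17.9 CPM in control, 41.5 and 47.4 in CpR, 0.607 and 0.899 in TxR and 0.742 and 0.322 in TxCpR. It was higher than control in CpR by 1.29 (SE 0.28, limma adjusted p = 8.15e-05) and lower in TxCpR by -4.18 (SE 0.28, adjusted p = 6.83e-25). Against CpR the loss was -5.47, the largest of any named member peak, with 9 reads in TxCpR and 774 in CpR, a ratio of 85.8 (exact 95% interval 45.0 to 188.3). At 84.8 kb upstream, chr15:38167527-38168527 held 14.0 and 13.0 CPM in control, 22.5 and 25.6 in CpR, 0.607 and 0.674 in TxR and 0.124 and 0.107 in TxCpR. Those TxCpR values are 2 reads in all, against 209 in control, a ratio of 117.5 (exact 95% interval 32.1 to 977), and against 419 in CpR, a ratio of 209 (57.5 to 1731).

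In further upstream SPRED1 peaks CpR was again highest, followed by control. At 91.6 kb, chr15:38160700-38161700 held 7.15 and 8.50 CPM in control, 19.5 and 19.8 in CpR, 0.243 and 0.562 in TxR and 0.618 and 0.322 in TxCpR. At 22.9 kb, chr15:38229427-38230427 was barely detected in control, with 1.04 and 1.29 CPM, and held 13.5 and 11.7 in CpR, a gain of 2.98 (SE 0.45, limma adjusted p = 5.48e-08). TxR held 0.121 and 0.112 CPM there and TxCpR 0.247 and 0.215, below the level that a count of 0 allows, and TxCpR against control was not called (-1.18, adjusted p = 0.0690).

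**Figure D4:**
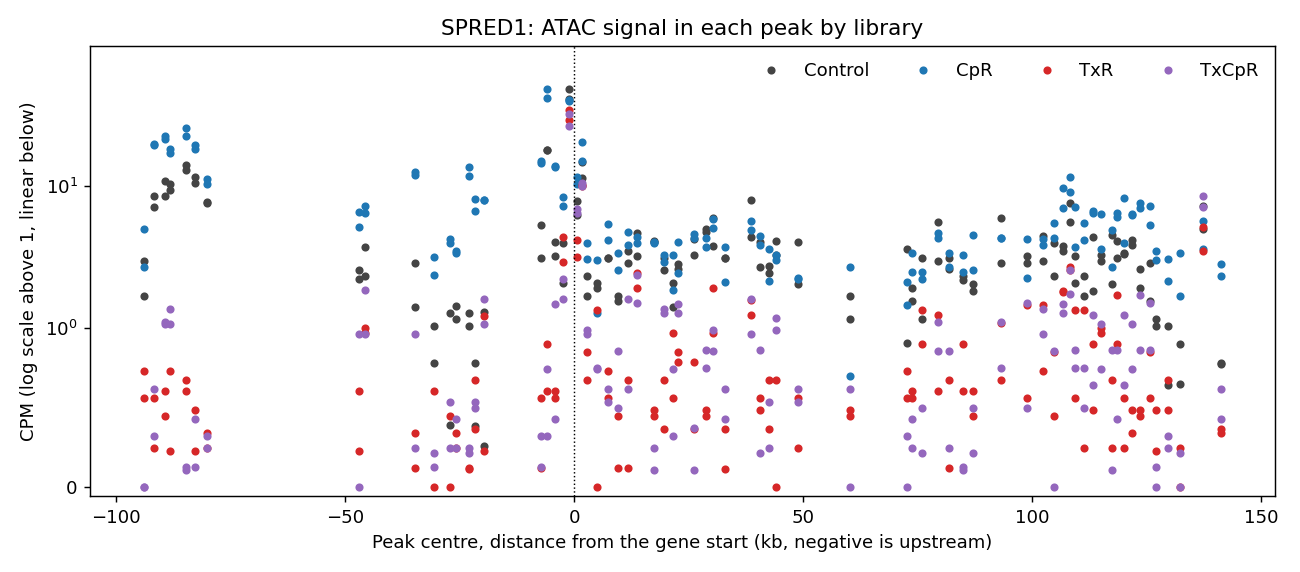
ATAC signal in CPM (vertical axis, logarithmic above 1 and linear below) in the 71 SPRED1 peaks against the distance of the peak centre from the gene start in kb; points are single libraries. Upstream of the start CpR (blue) lies mostly above control (dark grey), and TxR (red) and TxCpR (purple) lie mostly below 1 CPM, while at the start peak all 8 libraries lie between 26.3 and 47.8 CPM.

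SPRED2, the second SPRED gene, showed the same order of TxCpR and CpR with smaller differences. SPRED2 spans chr2:65307175-65432599 on the minus strand. Its start peak, chr2:65432225-65433225, held 44.8 and 39.0 CPM in control, 54.7 and 55.7 in CpR, 43.1 and 38.7 in TxR and 29.2 and 29.9 in TxCpR. CpR stood highest, TxCpR lowest, and control and TxR overlapped. CpR was higher than control by 0.40 (SE 0.11, limma adjusted p = 0.00331), a call lost without control library 2 (0.30) and after subtraction of the regional median of 0.28 (0.12). TxCpR was lower than control by -0.50 (SE 0.11, adjusted p = 0.000538; -0.40 and not called without control library 1) and lower than CpR by -0.89 (SE 0.11, adjusted p = 1.03e-10). Across its 38 peaks, 14 were lower and none higher in TxCpR than in CpR, and 9 were higher and none lower in CpR than in control, of which regional subtraction left 4 calls.

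ETV4, an ETS factor of the PEA3 group, lies at chr17:43527846-43546340, and some of its span peaks overlap the neighbouring gene DHX8. Its start peak, chr17:43545766-43546766, held 42.4 and 41.3 CPM in control, 57.4 and 56.6 in CpR, 28.7 and 32.6 in TxR and 31.2 and 29.2 in TxCpR. CpR stood highest, and TxR and TxCpR overlapped below control. CpR was higher than control by 0.44 (SE 0.11, limma adjusted p = 0.00125), which fell to 0.04, not called, once the regional median of 0.40 was subtracted. TxCpR was lower than control by -0.46 (SE 0.11, adjusted p = 0.00170) and lower than CpR by -0.91 (SE 0.11, adjusted p = 1.15e-10), the latter -0.45 and still called after regional subtraction. Of the 10 distal ETV4 peaks 5 were higher in CpR than in control, by up to 2.95, and 5 were lower in TxCpR than in CpR, and their summed signal was 25.1 and 25.9 CPM in control, 64.0 and 60.1 in CpR, 15.5 and 16.0 in TxR and 30.1 and 29.2 in TxCpR.

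ETV5, the close relative of ETV4, had peaks called higher and none called lower in both TxCpR comparisons. The gene lies at chr3:186046314-186109089, and its start peak, chr3:186108784-186109784, was the strongest peak of all 289, with 76.3 and 70.2 CPM in control, 65.3 and 68.9 in CpR, 81.5 and 81.6 in TxR and 75.9 and 75.3 in TxCpR. It was not called in any tested comparison: -0.12 for CpR against control, 0.05 for TxCpR against control and 0.17 for TxCpR against CpR (SE 0.09 each, limma adjusted p = 0.283, 0.797 and 0.102). The sign of the last 2 turned under median-ratio scaling (-0.03 and -0.02) and after regional subtraction, which called both lower (-0.41 and -0.45), whereas cyclic loess scaling called both higher (0.25 each). Within the gene, chr3:186097697-186098697 rose. It held 3.90 and 4.63 CPM in control, 3.04 and 3.27 in CpR, 19.6 and 18.7 in TxR and 26.5 and 25.9 in TxCpR.

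This intragenic ETV5 peak separated TxR and TxCpR from control and CpR without overlap. TxCpR was higher than control by 2.49 (SE 0.21, limma adjusted p = 2.65e-18) and higher than CpR by 2.87 (SE 0.21, adjusted p = 3.93e-22), the largest gain of any named member peak in either comparison. Its neighbour, chr3:186098835-186099835, held 2.21 and 2.19 CPM in control, 0.900 and 2.34 in CpR, 3.04 and 4.83 in TxR and 8.66 and 8.60 in TxCpR (1.76 against control, SE 0.34, adjusted p = 3.42e-05). In all, 4 of 17 ETV5 peaks were higher and none lower in TxCpR than in control, and 8 were higher and none lower than in CpR. After subtraction of the regional median, 0.46 and 0.62 in these comparisons, 2 were higher and 1 lower against control, and 2 higher and 2 lower against CpR. The peak chr3:186105234-186106234 passed only narrowly against control (1.18, SE 0.42, adjusted p = 0.0472), and the call was lost under all 3 scalings, with a pseudocount of 0.1, after regional subtraction, by edgeR and DESeq2, and without control library 2, CpR library 2 or either TxCpR library.

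The pathway that these genes restrain was described through the start peaks of 34 genes of the ERK cascade, from receptors to ERK targets, all measured. In CpR against control 13 (38.2%) were lower and 3 (8.82%) higher, median -0.25, beside 28.5% lower, 10.7% higher and a median of -0.19 over all gene starts. The largest losses were at KSR1, a scaffold of RAF and MEK (18.4 ± 0.951 to 7.75 ± 0.453 CPM, SD, n = 2), KIT, a receptor tyrosine kinase (10.9 ± 0.108 to 4.64 ± 0.280), and RPS6KA3, a kinase activated by ERK (14.7 ± 1.91 to 7.01 ± 1.33). The gains included PDGFRB, a growth factor receptor that is also among the fibroblast markers (5.18 ± 0.585 to 26.1 ± 0.299 CPM), and GRB2, an adaptor (32.2 ± 0.875 to 43.9 ± 2.24). In TxCpR against control 9 were lower and none higher, median -0.23, led by MET, KSR1 and IGF1R, beside 15.2% lower, 4.57% higher and a median of -0.14 over all gene starts. In TxCpR against CpR 6 of 34 were higher (17.6%) and 4 lower (11.8%), at or below the 18.9% and 16.9% of all gene starts, with differences of 1.10 at RPS6KA3 and -2.20 at PDGFRB.

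Of 32 other genes induced by ERK or acting in feedback, all measured, none was higher in TxCpR than in control and 7 (21.9%) were lower, median -0.11. Over all gene starts 15.2% were lower, 4.57% higher, and the median was -0.14, slightly more negative than that of the list. The largest loss was at EGR2, an immediate early transcription factor, from 45.0 ± 3.71 to 24.0 ± 3.27 CPM (-0.90, SE 0.12, limma adjusted p = 7.18e-10, n = 2 per group), followed by KLF2 and KLF4. In CpR against control 7 were higher, led by PLAUR, SPHK1 and FOSL1, and 4 lower, led by LRIG1, KLF4 and SPRED3, beside 10.7% higher and 28.5% lower over all gene starts. FOSL1, a component of AP-1, held 13.4 ± 4.02 CPM in control and 22.7 ± 0.938 in CpR, and PLAUR, the urokinase receptor, 8.79 ± 1.59 and 16.7 ± 3.12. In TxCpR against CpR 9 were lower, led by EGR2 (-1.35), PLAUR (-0.99) and FOSL1 (-0.86), and EPHA4 and LRIG1 were higher, beside 16.9% lower and 18.9% higher over all gene starts. SPRED3, the third SPRED gene, was lower in CpR than in control (91.1 ± 1.54 to 66.8 ± 2.45 CPM).

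Among 3343 other genes whose start peaks varied enough to be compared, those most like the DUSP6 start peak over the 8 libraries were CYP1B1 (Pearson's r = 0.997), NRIP1 (0.992), SH3BP4 (0.991), PLOD2 (0.990) and TMSB15C (0.983). These values describe 8 libraries in 4 groups and carry no test. NRIP1, for example, held 24.5 ± 0.535 CPM in control, 22.4 ± 0.532 in CpR, 3.58 ± 0.773 in TxR and 13.2 ± 0.156 in TxCpR (SD, n = 2). CYP1B1 held 43.3 ± 0.0249 CPM in control, 44.9 ± 3.48 in CpR, 14.1 ± 1.51 in TxR and 32.0 ± 0.895 in TxCpR. The other 9 feedback genes were left out of this ranking beforehand, and their r with DUSP6 ran from -0.83 for ETV5 to 0.69 for ETV4.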

How the data were processed

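The authors deposited CPM values for 159451 peaks of 1001 bp in 8 ATAC-seq libraries; the unit is named in the deposited file, and its columns sum to the same total. Changes common to every peak are thus not visible. Bowtie2, Picard, MACS2 and hg38 are named in the submitters' processing notes, with no version; Tn5 read shifting and peak merging are not described in the labels. Whole reads were recovered from the CPM steps for 100% of values (within 0.01 read).

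The 158698 peaks that reached 1 CPM in 2 or more libraries were fitted as log2(CPM + 0.5) with limma 3.58.1 in R 4.3.3, all 4 groups together, with a trended prior variance (residual df 4, prior df 98.5) and Benjamini-Hochberg adjustment over all of them. A fold on this scale understates changes of weak peaks. edgeR 4.0.16 and DESeq2 1.42.0 on recovered reads were alternatives, as were scaling, pseudocounts, filters, leaving out each library and subtraction of the median of 5 Mb bins. The bins are fixed along each chromosome and include the peaks of the gene itself, 71 of 314 for SPRED1.

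The members, gene lists and tests were chosen with earlier results of these data known. A gene-start peak is the strongest tested peak overlapping the RefSeq (GRCh38.p14) promoter window, or within 1 kb of either span end where no window was given (DUSP4, DUSP5, ETV4, ETV5). For SPRY4 and SPRED1, where no tested peak overlapped the window, the strongest within 1 kb of it was taken, a choice made after seeing the data. Named peaks are each gene's start peak and strongest peak and, per tested comparison and direction, the 6 called peaks with the largest difference, no overlap between groups and at least 3 CPM in the higher group. From each list the 3 largest called differences per direction were named, except 1 gene that is not reported here, and like genes are the 5 with the highest r among those reaching 3 CPM and spanning at least 1 on the log2 scale. The DUSP6 peak at 6.5 kb and the division of a locus into sides were chosen after their values were seen.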

Additional observations from a re-analysis of the deposited data

How the results depend on the processing

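Counts of called peaks kept within 1.5 times of the values above under every scaling, filter and fit of the compared groups alone, except as follows. With a pseudocount of 2, 11 peaks were higher in TxCpR than in control. Subtraction of 5 Mb medians gave 34 lower in CpR, 4 higher in TxCpR against control and 18 higher in TxCpR against CpR, and DESeq2 gave 30 lower in CpR and 22 higher in TxCpR against CpR. Peaks in the extended spans alone gave 20 higher and 12 lower (CpR against control), 37 lower (TxCpR against control), 14 higher and 55 lower (TxCpR against CpR), and 48 lower in TxR, fewer because 117 peaks were counted. Leaving out 1 library gave 4 to 8 higher in TxCpR against control, the 4 without TxCpR library 1. The cause of the other changes was not tested.

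Library numbers did not pair the samples (correlation of deviations -0.001 to 0.003), and with the replicate block the counts were 70 higher and 53 lower, 7 and 99, and 43 and 136 in the 3 comparisons.

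Signs turned at start peaks that were not called above. SPRY2, TxCpR against CpR, was -0.02 under cyclic loess, -0.18 under median-ratio scaling, regional subtraction and DESeq2, -0.16 under edgeR, and -0.05 to 0.08 over the fits that leave out 1 library. SPRY4 there was -0.15 to 0.03 over those fits, above 0 without CpR library 1 (0.03) or TxCpR library 1 (0.02). SPRED1, CpR against control, was 0.01 under cyclic loess. ETV5 against control was -0.03 under median-ratio scaling and DESeq2, -0.05 under edgeR, -0.41 after regional subtraction and -0.01 to 0.11 over those fits, -0.01 without control library 2; against CpR it was -0.02, -0.02, 0.0 and -0.45 under median-ratio scaling, DESeq2, edgeR and regional subtraction. Depth limits peaks near 0.39 CPM, as at some distal upstream SPRED1 peaks in TxR and TxCpR.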

Other observations

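The start peaks of LUM and DCN, fibroblast matrix genes in the marker lists, were at 25.8 and 14.8 CPM in TxR and between 0.516 and 1.58 CPM on average in the other groups, while COL1A1, also a fibroblast collagen gene, was at 15.6 CPM in TxR and 20.4 to 35.7 in the others. KDR, the only measured endothelial marker, was at 10.6 CPM in control and 1.57 to 3.08 CPM in the resistant groups. These levels move with some of the groups described above, and their part in the results was not tested.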
